A study of Mus musculus with 6 samples.

Results

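Markers of retinal bipolar cells were read in RNA sequencing libraries of retinal endothelial cell preparations from mouse pups at postnatal day 7. The 8 genes were a named list, Trpm1, Grm6, Vsx1, Prkca, Cabp5, Gng13, Pcp2 and Isl1, and each matched 1 of the 24421 rows of gene symbols in the deposited table. Of the 6 libraries, 3 were controls of genotype Anxa3 fl/fl and 3 were mutants of genotype Anxa3 fl/fl;Tie2-Cre, all on a C57BL/6 background. All groups therefore carried the floxed alleles of annexin A3, and the mutants alone carried the Cre transgene, whose Tie2 promoter is active in endothelial and blood-lineage cells. Whether separate pups or litters stand behind the replicates is not stated, so a p-value here reflects spread between libraries that could be technical. Each title ends in a letter of unstated meaning, and 2 sets are used below: A to C (control replicate 1, mutant replicate 1 and control replicate 2) and D to F (control replicate 3, then mutant replicates 2 and 3).

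Bipolar cells are the interneurons that carry signals from photoreceptors to amacrine and ganglion cells. The ON types sense glutamate from photoreceptors with the metabotropic receptor mGluR6, encoded by Grm6, which acts through the G protein Go to close the cation channel TRPM1 in darkness, so the channel opens in light. Bipolar cells are among the last retinal neurons to be born, and in mice they are still maturing in the days after birth. They are neurons of the inner nuclear layer and not part of the labelled cell type, endothelium. In bulk libraries fewer bipolar cells and less RNA per cell cannot be told apart.

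All 8 markers were detected in every library, at 3.92 FPKM or more. Levels are FPKM, fragments scaled to gene length and to a depth factor of each library, so they can be compared between genes. All 8 reached at least 1 FPKM in at least 3 libraries, the filter for testing, and in fact did so in every library. The summed level of the 8 genes was 183 to 252 FPKM in controls and 239 to 250 FPKM in mutants. The labelled cell type was present, with all 13 endothelial markers detected in each library at sums of 606 to 1370 FPKM (controls) and 643 to 899 FPKM (mutants). Rod photoreceptor genes were more abundant still, at sums of 3827 to 5414 FPKM (controls) and 4519 to 5951 FPKM (mutants) over 11 genes. Control replicate 3 stood apart: it held 2.172 times the summed endothelial level of the mean of control replicates 1 and 2, 0.727 times the rod level and 0.759 times the level of the 8 bipolar markers. Leaving out that library moved many of the differences below. The targeted gene Anxa3 read 18.7, 17.7 and 43.4 FPKM across control replicates 1 to 3 against 9.78, 12.5 and 15.1 FPKM across mutant replicates 1 to 3. Every mutant value was below the lowest control, as for 1.56% of all genes tested, and the highest control was again replicate 3. The exact permutation test gave p = 0.1, the smallest that 20 arrangements allow. In the limma test used below, the log2 difference of Anxa3 was -0.93 (unadjusted p = 0.0204, adjusted p = 0.9998), so Anxa3 was not called. Without control replicate 3 the difference was -0.53. Between 21370994 and 30876966 reads per library were recovered from the values.

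**Figure D1:**
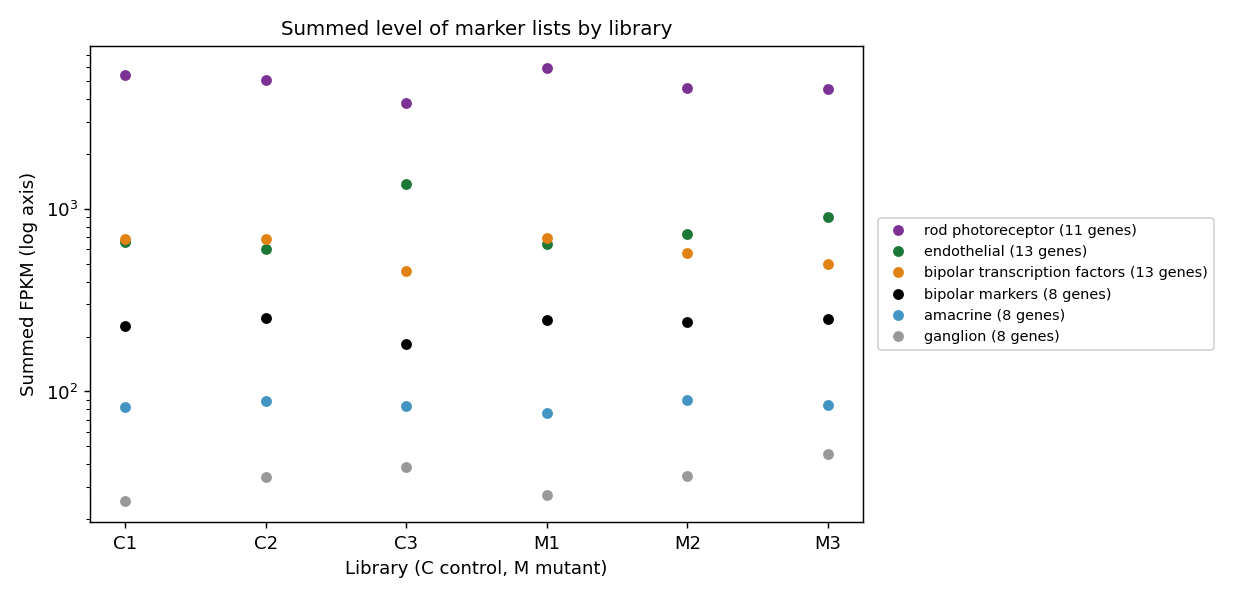
Summed FPKM of 6 marker lists (log axis) in control (C) and mutant (M) libraries, 1 point per list and library. Rod genes lie highest throughout, and in control replicate 3 the endothelial sum reaches 1370 FPKM while the sum of the 8 bipolar markers drops to 183 FPKM.

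The promoter windows of 4 of the markers are shown because these genes differed in how they varied over the libraries, as described below. Each window runs from 250 bases before to 50 bases after a RefSeq transcription start on GRCm38.p6, 5′ to 3′ on the strand of the gene. Capitals mark matches, on either strand, to TAATCC (the site of the homeodomain factors CRX and OTX2), TAATTA (a paired-like homeodomain site) or CAGATG (an E-box of neural bHLH factors). The Trpm1 window is the upstream one of 2 listed starts, at chr7:64153585-64153884 on the plus strand. The windows of Grm6 at chr11:50850435-50850734 (plus strand), Cabp5 at chr7:13397905-13398204 (plus strand) and Isl1 at chr13:116309639-116309938 (minus strand) are the single ones listed.
Trpm1: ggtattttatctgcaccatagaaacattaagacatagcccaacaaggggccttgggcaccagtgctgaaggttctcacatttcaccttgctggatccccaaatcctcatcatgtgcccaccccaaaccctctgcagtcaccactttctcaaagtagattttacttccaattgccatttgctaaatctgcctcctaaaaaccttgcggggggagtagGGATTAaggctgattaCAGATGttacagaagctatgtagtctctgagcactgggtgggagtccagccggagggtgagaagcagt
Grm6: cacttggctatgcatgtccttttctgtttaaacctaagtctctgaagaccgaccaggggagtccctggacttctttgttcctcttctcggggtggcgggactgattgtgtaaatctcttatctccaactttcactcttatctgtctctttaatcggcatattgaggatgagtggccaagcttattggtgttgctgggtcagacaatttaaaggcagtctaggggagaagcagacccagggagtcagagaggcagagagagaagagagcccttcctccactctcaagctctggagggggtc
Cabp5: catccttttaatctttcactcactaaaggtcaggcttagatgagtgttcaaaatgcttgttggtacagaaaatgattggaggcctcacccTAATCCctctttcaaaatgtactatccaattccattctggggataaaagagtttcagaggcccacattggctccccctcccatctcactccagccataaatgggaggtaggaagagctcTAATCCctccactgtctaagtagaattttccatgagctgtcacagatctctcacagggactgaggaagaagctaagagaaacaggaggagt
Isl1: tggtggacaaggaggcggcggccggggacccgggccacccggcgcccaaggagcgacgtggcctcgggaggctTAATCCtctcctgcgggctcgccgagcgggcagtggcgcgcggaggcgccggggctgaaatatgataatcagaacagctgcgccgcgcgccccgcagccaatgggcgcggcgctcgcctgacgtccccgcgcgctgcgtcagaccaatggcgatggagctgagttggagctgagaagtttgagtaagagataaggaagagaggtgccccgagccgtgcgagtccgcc

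The Trpm1 window shown holds a TAATCC match on the opposite strand at position -34 and a CAGATG match at -18 from the start site. The window of the other Trpm1 start holds none of the 3 motifs. In the Cabp5 window TAATCC occurs at -160 and -41, and in the Isl1 window at -177. No match to any of the 3 motifs lies in the Grm6 window. Over the 13 start windows listed for the 8 markers, 3 held TAATCC, 1 held TAATTA (a Pcp2 start) and 3 held CAGATG (1 of Trpm1 and 2 overlapping Pcp2 windows). Among 32851 promoter windows of the same length, 7.06% held TAATCC, 5.29% TAATTA and 17.2% CAGATG. A match is a run of letters and was not tested as a binding site.

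In order of mean level over the 6 libraries, Isl1 stood at 67.5 FPKM, Grm6 at 44.7, Prkca at 38.6, Cabp5 at 23.6, Trpm1 at 21.3, Vsx1 at 17.4, Pcp2 at 13.6 and Gng13 at 6.38 FPKM. Isl1 was thus above 97.5% of all rows by mean FPKM, Grm6 above 94.6%, Trpm1 above 84.0% and Gng13 above 61.8%. The steps from Isl1 to Grm6, from Prkca to Cabp5 and from Pcp2 to Gng13 held in 6 of 6 libraries, with ranges that did not overlap. The remaining neighbours were not separated by their spread: Grm6 exceeded Prkca in 4 of 6 libraries, Cabp5 exceeded Trpm1 in 4, Trpm1 exceeded Vsx1 in 4 and Vsx1 exceeded Pcp2 in 5. Trpm1 and Vsx1 exchanged places, with a Trpm1 to Vsx1 ratio from 0.760 to 2.295 over the libraries.

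Between mutant and control libraries no marker passed the limma test over 13622 genes at an adjusted p under 0.05. The background was 0 genes called (0%), with 165 genes (1.21%) at an unadjusted p under 0.05, of which 122 (0.896%) were higher in mutants. Trpm1 was the single marker of the 8 among these. Of the 8 markers, 7 had a positive log2 difference, mutant minus control, with a median of 0.18, beside 47.5% positive and a median of -0.01 over all genes tested. Because 1 is added to each FPKM before taking log2, the difference of a low gene is understated. Without control replicate 3 the count fell to 4 of 8 and the median to 0.05, so this balance rested on that library. The limma adjusted p was 0.9998 for each marker.

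Trpm1, the transduction channel of ON bipolar cells, varied most between genotypes. Its control values were 16.1, 18.9 and 17.4 FPKM for replicates 1 to 3, and its mutant values were 18.2, 24.6 and 32.8 FPKM. Mutant replicates 2 and 3 lay above every control library, and mutant replicate 1 lay inside the control range, so the groups overlapped. The group values were 17.5 ± 1.41 and 25.2 ± 7.35 FPKM (SD, n = 3 each). On the log2 scale the difference came to 0.47 (standard error 0.192), and its 95% interval in limma ran from 0.02 to 0.91. A two-sided exact permutation test gave p = 0.2, where 20 arrangements allow no p below 0.1, and the unadjusted limma p was 0.0410. Leaving out single libraries moved the difference from 0.27 (without mutant replicate 3) to 0.68 (without mutant replicate 1). Without control replicate 3 it was 0.47. From 2613 to 6239 reads lay behind each value, so counting error was at most 1.96% and far smaller than the gap between mutant libraries. Trpm1 occupies bases 64153835 to 64269775 of chromosome 7 (plus strand, GRCm38).

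Grm6, the mGluR6 receptor gene, gave a smaller difference with the same 2 libraries on top. It measured 37.2, 48.4 and 41.4 FPKM in the controls and 40.1, 49.7 and 51.1 FPKM in the mutants. Control replicate 2 and mutant replicates 2 and 3 were high, and the groups overlapped. The log2 difference was 0.15 (standard error 0.134) with a limma interval from -0.16 to 0.46, and the exact permutation test gave p = 0.4. Grm6 occupies bases 50850685 to 50866208 of chromosome 11 (plus strand). The antisense gene Gm12660 shares 599 bases, or 11.05%, of its annotated exon bases, and strand use in counting is not given in the sources used here.

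Channel and receptor were also set against each other within a library. Trpm1 stood at 0.432, 0.390 and 0.421 times Grm6 in control libraries, against 0.452, 0.495 and 0.642 times Grm6 in mutant libraries. The mutant ratios all lay above the control ratios, by a narrow margin for mutant replicate 1. Over all genes tested, 0.301% had a ratio to Grm6 that was higher in every mutant than in every control, and 2.47% one that was lower. This was 1 of 11 ratios between bipolar genes that were computed after the levels had been seen, of which 4 did not overlap between groups, so it is a description and was not tested.

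Gng13 encodes the gamma subunit that pairs with the G protein beta subunit Gnb3 in ON bipolar cells. It measured 6.57, 6.09 and 3.92 FPKM in the controls and 7.45, 6.67 and 7.55 FPKM in the mutants. This was the single marker of the 8 whose groups did not overlap, beside 4.35% of all genes tested with 2.79% higher and 1.56% lower in every mutant. The gap was narrow: the highest control, 6.57 FPKM, rested on 84 reads with an exact Poisson 95% interval from 5.24 to 8.14 FPKM, and the lowest mutant, 6.67 FPKM, on 86 reads with an interval from 5.34 to 8.24 FPKM, which cover counting error only. The log2 difference was 0.36 (standard error 0.174) with a limma interval from -0.04 to 0.76, and the exact permutation test gave p = 0.1, the smallest that 20 arrangements allow. Without control replicate 3 it was 0.17. Of the annotated exon bases of Gng13, on chromosome 17 from 25717171 to 25719406, 51.6% also belong to exons of Chtf18 on the opposite strand, which measured 2.88 to 4.86 FPKM, so reads of these genes may not have been told apart.

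Pcp2 encodes a GoLoco protein that binds the alpha subunit of Go, and it is also a marker of Purkinje cells in the cerebellum. It measured 15.2, 11.9 and 8.10 FPKM in the controls and 15.1, 13.7 and 17.4 FPKM in the mutants. Control replicate 3 was lowest, and control replicate 1 lay within the mutant range. The log2 difference was 0.40 (standard error 0.204) with a limma interval from -0.07 to 0.87, and the exact permutation test gave p = 0.3. It fell to 0.18 without control replicate 3. From 131 to 303 reads lay behind each value. Exons of Pet100, on the opposite strand, cover 51.5% of the annotated exon bases of Pcp2 on chromosome 8 from 3623371 to 3625545, and Pet100 measured 6.80 to 11.3 FPKM, so the Pcp2 values are uncertain in the same way.

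Prkca, the kinase PKC alpha by which rod bipolar cells are commonly stained, and which other cell types also express, did not follow Trpm1 and Grm6. It measured 39.8, 41.9 and 32.3 FPKM in the controls and 46.1, 36.5 and 35.2 FPKM in the mutants. Here mutant replicate 1 was highest, and mutant replicates 2 and 3 lay inside the control range. The log2 difference was 0.05, with a limma interval from -0.28 to 0.37 and an exact permutation p = 0.8, and its sign turned without control replicate 3 (-0.07) and without mutant replicate 1 (-0.07). Prkca occupies bases 107933387 to 108343928 of chromosome 11 (minus strand), and between 6989 and 10277 reads stood behind each value.

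Cabp5, a calcium-binding protein of rod bipolar and some cone bipolar cells, was level in all libraries but 1. Values were 25.8, 26.7 and 14.3 FPKM in the controls and 24.4, 24.8 and 25.5 FPKM in the mutants. Of these 6 libraries 5 lay within 24.4 to 26.7 FPKM, and control replicate 3 was the exception, with a counting interval from 13.2 to 15.4 FPKM on 646 reads. The log2 difference of 0.20, with a limma interval from -0.29 to 0.70 and an exact permutation p of 1, became -0.07 without that library. Cabp5 occupies bases 13398132 to 13408887 of chromosome 7 (plus strand), and no annotated gene overlaps it.

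Isl1, a LIM homeodomain factor of ON bipolar cells, is also expressed by ganglion cells and cholinergic amacrine cells. It measured 67.8, 75.4 and 51.2 FPKM in the controls and 76.1, 68.6 and 65.9 FPKM in the mutants. The spread of the controls enclosed mutant replicates 2 and 3, and mutant replicate 1 was marginally above control replicate 2. The log2 difference was 0.13, with a limma interval from -0.22 to 0.47 and an exact permutation p = 0.6, and it was -0.03 without control replicate 3. Of 8 ganglion cell markers 7 passed the filter and 0 were at 0, with a summed level of 25.2 to 38.7 FPKM in controls and 27.0 to 45.4 FPKM in mutants, and single genes ran from Pou4f2 at 0.323 to 1.10 FPKM to Rbpms at 6.34 to 13.8 FPKM. Of 8 amacrine markers 6 passed and 0 were at 0, with a summed level of 82.5 to 88.7 FPKM in controls and 76.0 to 90.0 FPKM in mutants, and Chat of the cholinergic type was at 0.237 to 1.13 FPKM. Their part in the Isl1 values was not tested. Isl1 occupies bases 116298281 to 116309689 of chromosome 13 (minus strand).

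Vsx1, a homeodomain factor of cone bipolar cells, was the single marker with a negative difference. It measured 21.1, 22.5 and 13.9 FPKM in the controls and 17.9, 14.6 and 14.3 FPKM in the mutants. Control replicates 1 and 2 were above all mutants, whereas control replicate 3 was the lowest of the 6. The log2 difference was -0.26 (standard error 0.181) with a limma interval from -0.68 to 0.16, the exact permutation test gave p = 0.4, and without control replicate 3 the difference was -0.46. Relative to Isl1, Vsx1 stood at 0.312, 0.298 and 0.271 in control libraries, against 0.235, 0.213 and 0.217 in mutant libraries. The group ratios were 0.294 ± 0.0205 in controls and 0.221 ± 0.0115 in mutants (SD, n = 3 each), without overlap, where 4.4% of genes did the same. The ratio is among the 11 chosen after the levels were seen and was not tested. Vsx1 occupies bases 150680702 to 150689360 of chromosome 2 (minus strand).

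**Figure D2:**
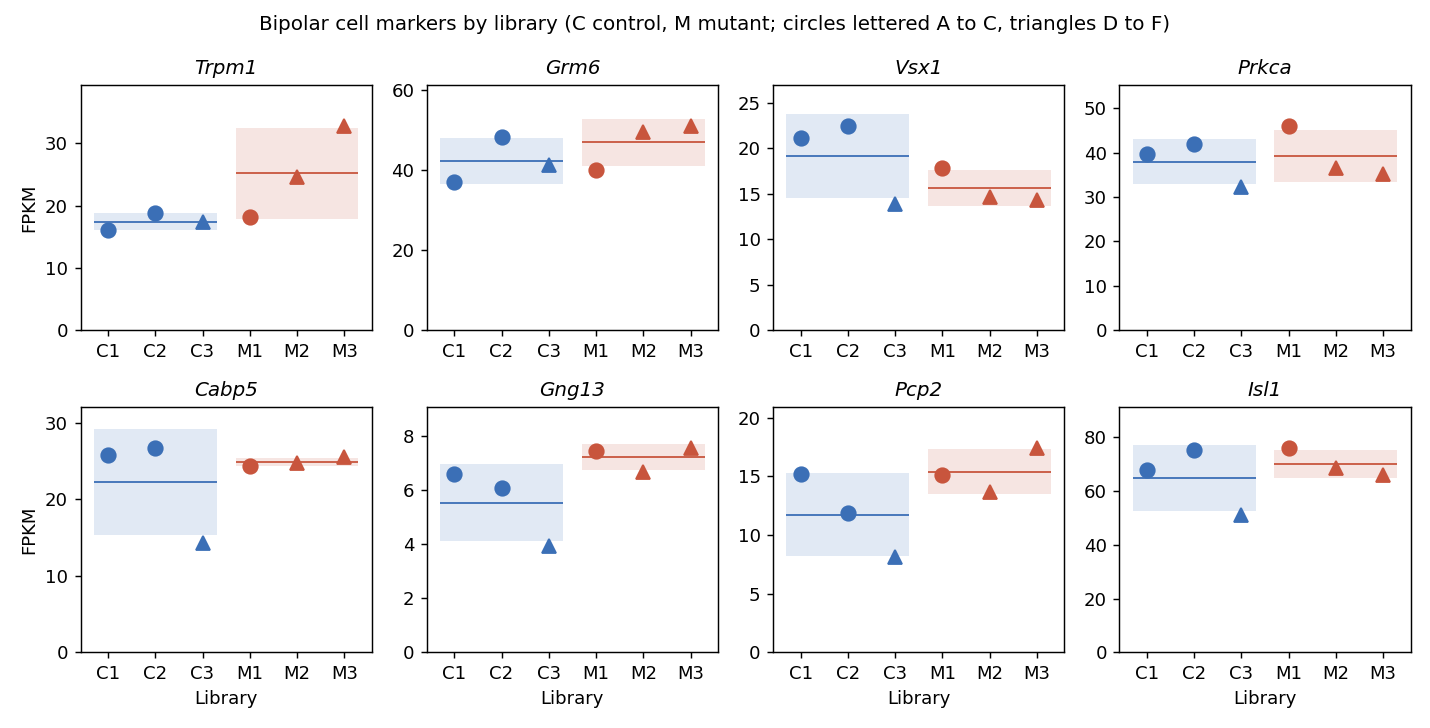
FPKM of each bipolar marker in control (C, blue) and mutant (M, red) libraries, with the group mean (line) and SD (band), circles for libraries lettered A to C and triangles for D to F. Trpm1 is highest in mutant replicates 2 and 3 at 24.6 and 32.8 FPKM, and Cabp5 is near 25 FPKM in all libraries except control replicate 3 at 14.3 FPKM.

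Control replicate 3 was the lowest of the 6 libraries for 6 of the 8 markers, Vsx1, Prkca, Cabp5, Gng13, Pcp2 and Isl1, beside 24.4% of all genes tested. The exceptions were Trpm1 and Grm6, which were lowest in control replicate 1. Control replicate 3 was also lowest for 10 of 11 rod genes and highest for 13 of 13 endothelial and 5 of 5 pericyte genes. Their part in the marker values was not tested. Within the libraries lettered D to F, where control replicate 3 is the lone control, all 8 log2 differences were positive, from 0.05 for Vsx1 and 0.15 for Prkca to 0.67 for Trpm1, 0.77 for Cabp5 and 0.85 for Pcp2. Within A to C, where mutant replicate 1 is the lone mutant, they were lower for all markers but Prkca, at 0.06 for Trpm1, -0.08 for Grm6, -0.27 for Vsx1, 0.17 for Prkca, -0.10 for Cabp5, 0.21 for Gng13, 0.16 for Pcp2 and 0.09 for Isl1. With a lone library on one side of each set, no test was made within a set.

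**Figure D3:**
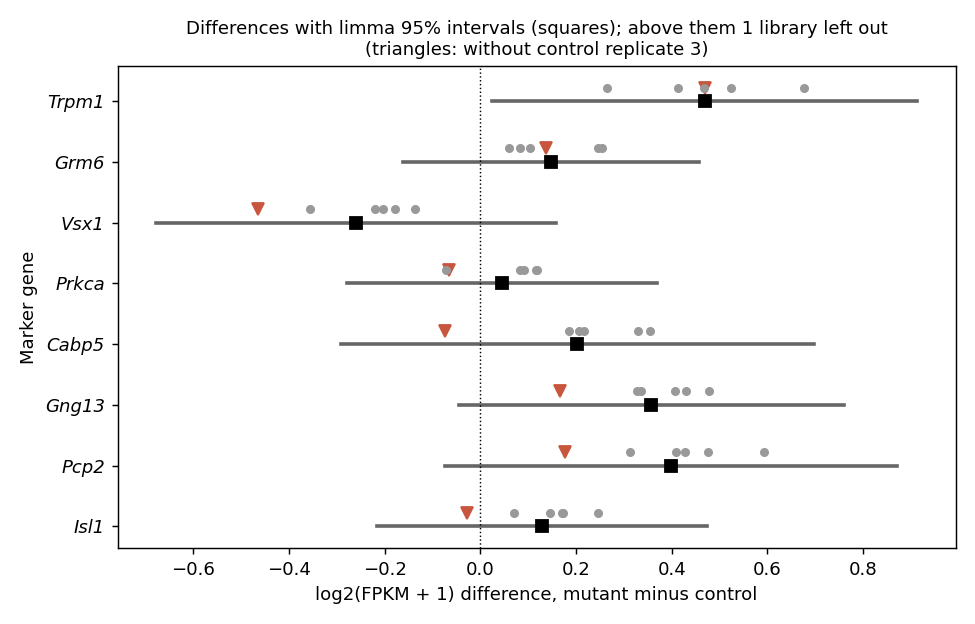
Log2(FPKM + 1) difference, mutant minus control, for each marker (squares) with its limma 95% interval, and above each the values with 1 library left out (triangles without control replicate 3). The interval of Trpm1 alone lies above 0, at 0.02 to 0.91 before adjustment for the number of genes. The triangles of Vsx1, Prkca, Cabp5 and Isl1 lie below 0.

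The 9 further genes of the ON cascade fell into a part that shared the Trpm1 pattern and a part that did not. Of these, 0 passed the limma test, 8 had a positive difference and 1 a negative one, with a median of 0.14. Mutant replicates 2 and 3 lay above every control, with mutant replicate 1 not above, for Gpr179, the orphan receptor that tethers the regulators of G protein signalling to the mGluR6 complex, for the regulators Rgs7 and Rgs11, and for Lrit3, a leucine-rich repeat protein needed to bring TRPM1 to the dendrite tip. Gpr179 measured 20.9 ± 1.75 FPKM in the control group and 23.8 ± 3.44 FPKM in the mutant group (SD, n = 3 each), Rgs11 9.94 ± 1.65 and 12.1 ± 3.56 FPKM, Rgs7 4.20 ± 0.374 and 5.55 ± 0.997 FPKM, and Lrit3 11.2 ± 1.69 and 13.2 ± 0.878 FPKM. With Trpm1 and Grm6 this pattern, noticed after the values had been seen, held for 2 of 8 markers and 4 of 9 cascade genes, beside 8.8% of all genes tested, and for 0 of 13 bipolar transcription factors and 0 of 11 rod genes. It also held for 1 of 4 horizontal cell genes, 1 of 6 amacrine genes, 1 of 8 genes of single bipolar types and 2 of 7 ganglion cell genes, whose summed level was 25.2, 33.8 and 38.7 FPKM in controls and 27.0, 34.3 and 45.4 FPKM in mutants, and the part of ganglion cell RNA was not tested. The difference between these shares was not tested. Mutant replicate 1 did not share the pattern, so it does not separate the genotypes.

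The G protein subunits did not share the pattern, and their groups overlapped. Gnao1, the alpha subunit of Go, which many neurons express, measured 19.98 ± 1.86 FPKM in the control group and 20.9 ± 0.158 FPKM in the mutant group (SD, n = 3 each). Gnb3, the beta subunit of ON bipolar cells and cones, was the most abundant cascade gene at 213 ± 36.6 and 232 ± 21.3 FPKM. Nyx, the leucine-rich repeat protein nyctalopin, was the least abundant at 2.66 ± 0.884 and 2.83 ± 0.328 FPKM. Rgs9bp, the anchor of regulators of G protein signalling in photoreceptors and bipolar cells, had the single negative difference of the list, at 32.5 ± 6.40 and 31.9 ± 7.19 FPKM. Without control replicate 3, 6 of the 9 differences were positive with a median of 0.02.

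Transcription factors of bipolar cell fate gave no call. Of 13 tested, 0 passed the limma test, 2 had a positive and 11 a negative difference, with a median of -0.02. Otx2, which photoreceptors express too, measured 202 ± 48.1 FPKM in the control group and 197 ± 34.4 FPKM in the mutant group (SD, n = 3 each). Bhlhe23, needed for rod bipolar maturation, measured 13.4 ± 2.85 and 13.6 ± 2.79 FPKM, and Prdm8, a factor of rod bipolar and OFF cone bipolar cells, 27.1 ± 4.82 and 26.7 ± 1.83 FPKM. Lhx4, a LIM homeodomain factor of cone bipolar cells, stood at 24.1 ± 2.67 and 23.7 ± 1.41 FPKM and Irx5 at 4.46 ± 0.349 and 4.44 ± 0.596 FPKM. Irx6, a factor of some OFF cone bipolar cells, had the most negative difference of the list, -0.21, at 3.89 ± 1.07 and 3.16 ± 0.322 FPKM. Neurod4, a bHLH factor of bipolar genesis, measured 114 ± 36.9 and 104 ± 32.2 FPKM. The count was also 2 positive and 11 negative without control replicate 3, where the median was -0.15, with Neurod4 at -0.42, Irx6 at -0.41 and Otx2 at -0.23. It was again 2 and 11 without mutant replicate 1, and 5 and 8 without mutant replicate 2. The balance turned to 7 and 6 without control replicate 1, 8 and 5 without control replicate 2 and 9 and 4 without mutant replicate 3. With the letter sets as a block, 10 of the 13 differences were positive, with a median of 0.08.

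Relative to Isl1, Trpm1 stood at 0.237, 0.250 and 0.340 in control libraries, against 0.238, 0.358 and 0.498 in mutant libraries. Grm6 stood at 0.548, 0.642 and 0.808 times Isl1, against 0.527, 0.724 and 0.775. In both genotypes these ratios were higher in the libraries lettered D to F than in those lettered A to C. On the same scale, Prkca was at 0.591 ± 0.0371 in controls and 0.557 ± 0.0419 in mutants, Cabp5 at 0.338 ± 0.0525 and 0.356 ± 0.0334 and Pcp2 at 0.180 ± 0.0382 and 0.221 ± 0.0378 (SD, n = 3 each), with overlap for each. Gng13 was at 0.0847 ± 0.0108 and 0.103 ± 0.00981 without overlap, beside 0.294% of all genes tested with a higher ratio in every mutant. That gap was narrow, with 0.0969 in control replicate 1 against 0.0972 in mutant replicate 2. The counting errors of Gng13 in these libraries were 10.9% and 10.8%. All ratios to Isl1 were computed after the levels had been seen and were not tested.

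**Figure D4:**
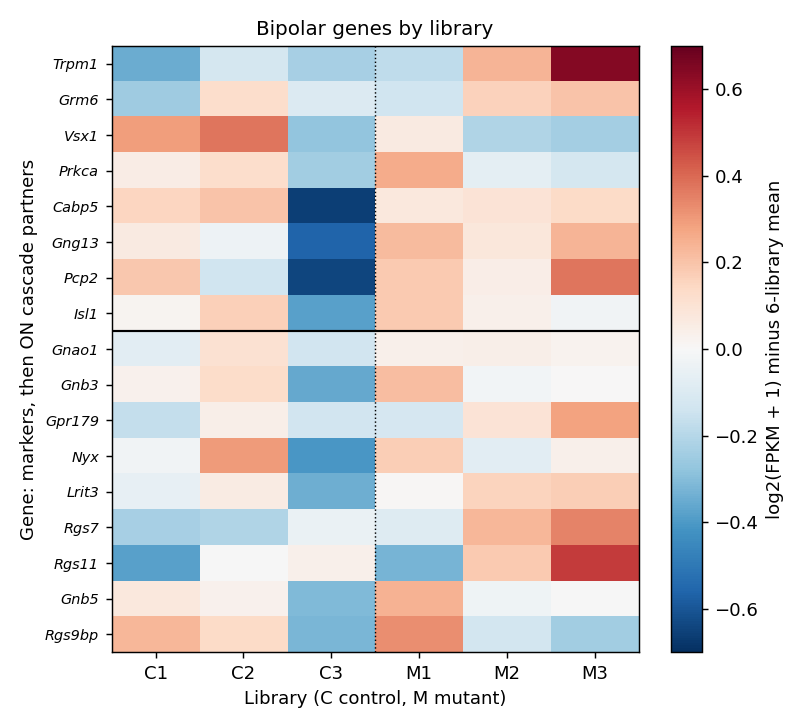
Deviation of log2(FPKM + 1) from each gene's mean over the 6 libraries, for the 8 markers and 9 ON cascade partners (rows) in control (C) and mutant (M) libraries (columns). Trpm1 and Rgs11 are most red in mutant replicate 3, and control replicate 3 is blue for most rows.

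Genes of single bipolar types gave no call, with 8 of 10 passing the filter, 5 positive and 3 negative differences and a median of 0.02. There were 3 positive and 5 negative without control replicate 3, with a median of -0.02. The kainate receptor gene Grik1 of OFF bipolar cells was steady, at 18.1 ± 0.737 FPKM in the control group and 18.4 ± 1.24 FPKM in the mutant group (SD, n = 3 each). Scgn, the calcium sensor secretagogin of cone bipolar cells, measured 13.2 ± 3.94 and 12.1 ± 2.23 FPKM, and Gabrr1, a subunit of the GABA-C receptor of bipolar terminals, 12.8 ± 3.07 and 14.3 ± 1.74 FPKM. Its partner Gabrr2 was at 1.38 ± 0.237 and 1.68 ± 0.284 FPKM. Tacr3, the tachykinin receptor of some OFF types, stood at 2.16 ± 0.364 and 1.99 ± 0.291 FPKM and Neto1, a kainate receptor auxiliary protein, at 1.88 ± 0.456 and 1.88 ± 0.309 FPKM. Car8, a carbonic anhydrase-related protein of rod bipolar cells, was the single tested gene of the list without overlap, at 2.90 ± 0.506 and 3.43 ± 0.0598 FPKM, beside 4.35% of all genes tested and 2.79% in that direction. Its difference of 0.19 was 0.08 without control replicate 3. Syt2 and Kcng4 fell under the filter.

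**Figure D5:**
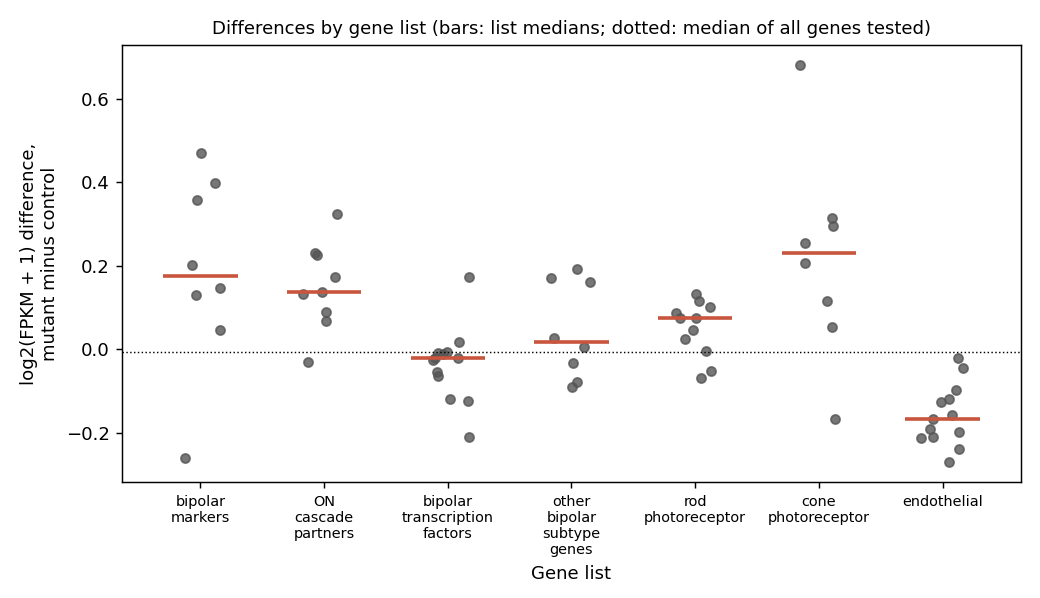
Log2(FPKM + 1) difference, mutant minus control, of each tested gene (points) in 7 gene lists, with list medians (bars) and the median of all genes tested (dotted). The bipolar markers have a median of 0.18 and the bipolar transcription factors of -0.02, and no gene shown passed the limma test.

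Among the other retinal and vascular lists 0 genes passed the limma test. Positive differences were counted for 8 of 11 rod genes (median 0.07), 7 of 8 cone genes (0.23), 2 of 6 amacrine genes (-0.08), 6 of 7 ganglion cell genes (0.11), 2 of 4 horizontal cell genes (-0.02), 4 of 6 Muller glia genes (0.04), 0 of 7 progenitor genes (-0.09), 0 of 13 endothelial genes (-0.17), 4 of 5 pericyte genes (0.05) and 1 of 5 microglia genes (-0.15). Without control replicate 3 the counts were 1 of 11 for rod genes (median -0.10), 6 of 8 for cone genes (0.03), 2 of 6 for amacrine genes (-0.06), 7 of 7 for ganglion cell genes (0.25), 1 of 4 for horizontal cell genes (-0.08), 0 of 6 for Muller glia genes (-0.10), 1 of 7 for progenitor genes (-0.14), 13 of 13 for endothelial genes (0.15), 5 of 5 for pericyte genes (0.31) and 1 of 5 for microglia genes (-0.35). Other single omissions also moved such counts. Ganglion cell genes gave 3 of 7 without control replicate 1 (median -0.03), 2 of 7 without mutant replicate 3 (-0.06) and 5 to 7 of 7 otherwise. Rod genes gave 2 of 11 without mutant replicate 1 (-0.08) and 9 or 11 of 11 without any other library but control replicate 3. Relative to the mean log2 level of the rod list in the same library, the Trpm1 difference was 0.42, that of Pcp2 0.35, that of Gng13 0.31 and that of Vsx1 -0.31, with 0 markers called.

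The genes whose levels followed each marker most closely over the 6 libraries were found by Pearson correlation of log2(FPKM + 1) among all genes tested, as a description from 6 points that share library depth and cell make-up. For Trpm1 they were Snora61 (r = 0.996), Wash1 (0.995) and Ppox (0.991), and for Grm6 Gckr (0.990), Podn (0.987) and Adck4 (0.987). Vsx1 was followed by Txnl4b (0.995), Ccdc103 (0.995) and Srl (0.991), and Prkca by Tub (0.999), Ttc9c (0.999) and Tcta (0.997). For Cabp5 they were Ndufs3 (0.994), Mrpl32 (0.992) and Mmab (0.988), for Gng13 Rabgef1 (0.995), Angptl6 (0.989) and Psmd4 (0.989), for Pcp2 Rd3l (0.993), Taf6 (0.992) and Drap1 (0.990), and for Isl1 Dda1 (0.996), Rnf157 (0.991) and Actc1 (0.989). No bipolar marker was among the 3 closest genes of another. Between markers the closest pair was Gng13 and Pcp2 (r = 0.968, 6 libraries), and Trpm1 was closest to Grm6 (0.828) and stood at 0.0605 with Isl1 and -0.562 with Vsx1.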

How the data were processed

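The deposited table gives gene expression as FPKM, with a column for each of the 6 libraries, and the labels' protocols name a TruSeq version 2 RNA library kit. The submitters' processing notes list Cufflinks 2.2.1, STAR 2.5.0b, bedtools 2.17.0 and DESeq2 with the mm10 build, but not what each did. A median-of-ratios factor computed from the values was 1.002 in each of the 6 libraries. The deposited values were therefore already level between libraries on that scale. Neither the gene annotation nor any filter, nor whether counting used strand, is known from the sources used here.

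Read numbers were recovered from the steps between low FPKM values. Depth factors came from miRNA genes of known length, and whole reads (within 0.002, rising to 0.05 for high counts) were found for 16489 of the 16491 rows above 0 in every library, taking the shortest gene length, up to 40000 bases, that gave them.

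Differences were tested with limma 3.58.1 (R 4.3.3, trended prior, two-sided, Benjamini-Hochberg) on log2(FPKM + 1), where 13622 genes met the minimum of 1 FPKM in 3 or more libraries, and the fit was tested on simulated data first. Single values had exact permutation tests (scipy 1.17.1). Figures used matplotlib 3.10.9. Alternatives were a pseudocount of 0.1, other filters and scalings, blocks for replicate number and letter set, library weights, a robust prior, limma voom on recovered reads, a reference to rod or bipolar factor levels (the last chosen after seeing the data) and omission of each library. Gene positions follow GENCODE M21 (GRCm38, the same assembly as mm10) and promoters from RefSeq on GRCm38.p6, with all 8 markers matched by symbol.

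The markers and all lists were chosen with earlier results of these data known. Named genes were the 8 markers, Anxa3, fixed examples of each list and the 3 genes most like each marker. Rgs7, Syt2, Kcng4, Chat, Rbpms and the overlapping genes were added after their values were seen. Results for some genes of the lists are not reported here.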

Additional observations from a re-analysis of the deposited data

How the results depend on the processing

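The count of genes called was 0 under each alternative run except library weights. Median-of-ratios scaling could hardly move a difference, because its factor was 1.002 in each library. The library weights called 145 of 13622 genes, and the estimate of those weights stopped before it converged. Control replicate 3 had the lowest weight, 0.260, and mutant replicate 2 the highest, 6.999. With these weights 4069 of 13622 genes had an unadjusted limma p under 0.05, against 165 in the main run. Vsx1 was among the 145 genes called, at -0.53 with a limma adjusted p = 0.0326. The signs of Prkca (-0.15), Cabp5 (-0.0437) and Isl1 (-0.0752) turned. Over all alternatives the smallest adjusted p of any other marker was that of Trpm1 with library weights, 0.0625. Relative to the rod level, Prkca was at -0.003. Over single omitted libraries the difference ran from -0.0728 (without mutant replicate 1; -0.0652 without control replicate 3) to 0.12 for Prkca, from -0.0749 (without control replicate 3) to 0.35 for Cabp5, from -0.0283 (likewise) to 0.25 for Isl1, from 0.27 to 0.68 for Trpm1, from 0.06 to 0.25 for Grm6, from -0.46 to -0.14 for Vsx1, from 0.17 to 0.48 for Gng13 and from 0.18 to 0.59 for Pcp2. Voom on recovered reads gave 0.51 for Trpm1 and the same signs for all 8 markers. Deviations of same-numbered libraries correlated at 0.249, -0.151 and 0.391, and those of differently numbered libraries at -0.352 to 0.231. With 3 libraries in each group these values cannot decide whether replicate numbers pair the libraries. With the replicate block 0 genes were called, 296 had an unadjusted p under 0.05, and 0 markers were called. Each replicate number holds 1 control and 1 mutant, so this block cannot move a difference, and that of Trpm1 stayed at 0.47. With the letter block 0 genes were called, 927 had an unadjusted p under 0.05, and Trpm1 was at 0.37. Depth limits Gng13 and Pcp2, with counting errors of up to 15.4% and 8.74% of a value.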

Other observations

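The miRNA gene Mir211 lies within an intron of Trpm1 on the same strand. It rested on 17, 2 and 18 reads in the controls and 12, 16 and 15 reads in the mutants, too few to compare with a host gene of 2613 to 6239 reads.

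Gene lengths implied by the deposited values were shorter than the union of annotated exons for each marker, at 6835 against 14746 bases for Trpm1, 414 against 773 bases for Gng13 and 625 against 1828 bases for Pcp2. Which transcript models lie behind the values is not stated, so how much of the shared exon bases of Gng13 and Pcp2 was counted is unknown.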
